A study of Mus musculus with 2 samples.

Results

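The lincRNA exon probes of the mouse LncRNA array are the probes whose name starts with MM9LINCRNAEXON and that are not array controls. There are 3457 of them among 61194 spots that are not controls, each printed as 1 spot. A name ends in a number for the exon and in + or - for the strand, so that MM9LINCRNAEXON10659+ is called exon 10659+ here. The probes cover 1729 exon numbers, of which 1728 have a probe of each strand and 1 has a probe of 1 strand only, with 1728 + probes and 1729 - probes in all. The plasma came from male C57BL/6 mice of 8 to 10 weeks in both groups. In the IRI group blood flow to part of the liver was blocked for 60 minutes and restored for 6 hours, and the sham group had the operation with no vessel closed. Plasma of each group was pooled before the array, from 5 to 8 mice by the methods and from 3 mice by the design text of the series. With 1 array of 1 pool per group there was no replicate, no test was possible, and every count and fold change describes these 2 arrays.

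Large intergenic noncoding RNAs (lincRNAs) are long transcripts that lie between protein-coding genes, are mostly made by RNA polymerase II, and are usually spliced and polyadenylated, but are not translated into a known protein. Many have been found from chromatin marks of active promoters and transcribed stretches rather than from cloned transcripts, which gives the exons but leaves the transcribed strand open in some loci. An array that carries a probe of each strand for an exon reads both possible transcripts. RNA in plasma is cell-free or carried in vesicles and protein complexes, and after liver injury it can come from hepatocytes, blood cells or other cells. Fewer releasing cells and less RNA per cell cannot be told apart in pooled plasma.

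The sham array and its column in the deposited series matrix held the same values, with 3457 of 3457 exon probes equal within a relative difference of 1e-05. The IRI scanner file and the IRI column of the matrix did not, with 0 of 3457 equal. Both versions of IRI were therefore kept apart and are called the IRI scanner file and the matrix IRI column. Comparisons of IRI with sham from the 2 sources share the same sham array. The scanning day differed between the arrays, which means that the scan cannot be told apart from the group. No spot was saturated. Gapdh, a glycolytic enzyme used as an internal control, had a median processed signal over 20 spots of 1100 on the sham array, 189280 in the IRI scanner file and 1260 in the matrix IRI column. Of 17 markers of hepatocytes, erythroid cells, platelets and leukocytes, 1 was found among the gene names, so the labelled plasma could not be set against cell type markers. This was Tfrc, the transferrin receptor, with a median over its 20 spots of 3.95, 4879 and 2.95 in the same order. The part of a cell type in the results below was not tested.

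Most lincRNA exon probes were dim in sham plasma. The processed signal, a background-subtracted brightness, had a median of 13.7 over the 3457 probes, a 90th percentile of 298 and a 99th percentile of 16340. It ranged from 3.31 to 138748. Well above background, a flag that the scanner software sets for each spot, was given to 1446 exon probes (41.8%), beside 41.0% of all spots that are not controls. Probes for mouse lincRNA loci, which read a locus rather than a numbered exon, had the flag at 35.7% of 691, and probes for human lincRNA orthologs at 33.5% of 1217. The flag was also set at 388 of 1200 spots of negative-control probes (32.3%), as the array names them. Counted instead above the 99th percentile of these spots, a signal of 103, there were 589 exon probes (17.0%) in sham plasma. The share of all spots that are not controls was 14.0%.

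More exon probes had signal in the IRI scanner file than on the sham array. Its median was 25.7, and 2200 exon probes (63.6%) were well above background, beside 68.7% of all spots. Of the 3457 probes 1204 had the flag on both arrays, 242 on the sham array only, 996 in the IRI scanner file only and 1015 on neither. Fewer negative-control spots had the flag in the IRI scanner file than on the sham array, 272 of 1200 (22.7%). Above their 99th percentile of 74.3 lay 1060 exon probes (30.7%), a smaller share than the 39.7% of all spots. The matrix IRI column gave counts near those of sham. Its median was 9.56. A signal of 16.7, the lowest flagged one of the sham array, was used as a floor because the column has no flags. The floor was reached by 1438 exon probes (41.6%), beside 36.7% of all spots. Of these exon probes 282 had no flag on the sham array, and 290 exon probes flagged on the sham array were below the floor. The counts over all 61194 spots were 4570 and 7197. Above the 99th percentile of the negative-control spots of this column, 71.6, were 752 exon probes (21.8%), beside 17.5% of all spots.

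**Figure D1:**
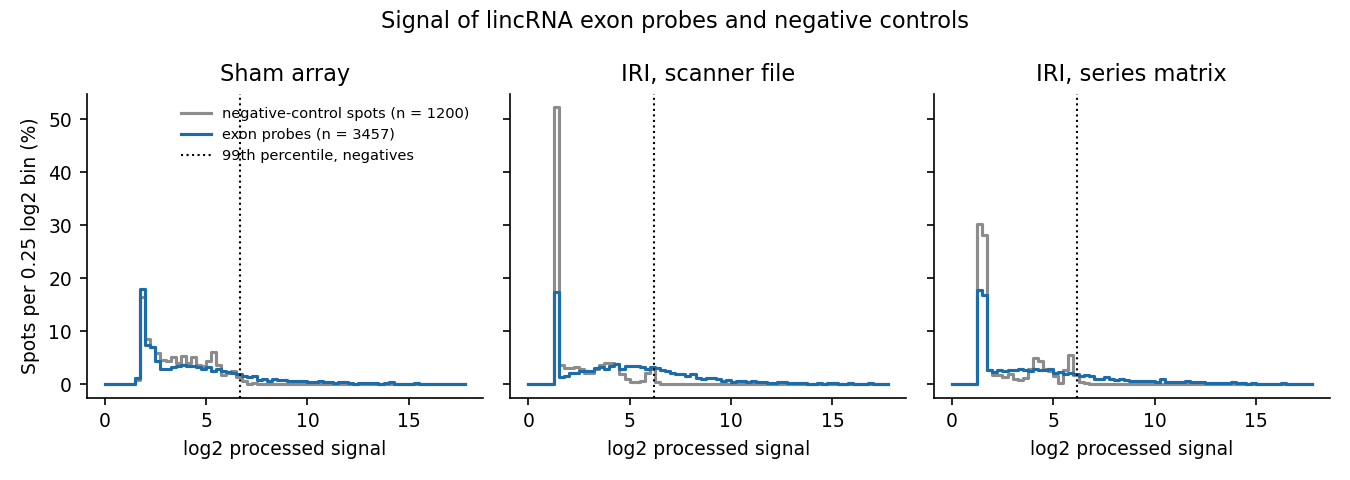
Share of spots in bins of 0.25 on the log2 scale of processed signal (x axis) for the 3457 exon probes and 1200 negative-control spots, on the sham array, in the IRI scanner file and in the matrix IRI column. The 2 curves overlap over the dim spots, and 589, 1060 and 752 exon probes lie to the right of the dotted 99th percentile of the negative controls.

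A small part of the exon probes carried most of the signal. The 10 brightest probes of each column held 39.0% of the summed signal of exon probes on the sham array, 38.5% in the IRI scanner file and 27.9% in the matrix IRI column. The 100 brightest held 86.5%, 84.8% and 83.5%. A signal over 1000 was reached by 185, 215 and 242 exon probes and one over 10000 by 53, 53 and 70. The count of very bright exons was thus alike in the IRI scanner file and on the sham array although the flags were not. It was not made over all spots that are not controls. Their 99th percentile was 10591 on the sham array, 75280 in the IRI scanner file and 15591 in the matrix IRI column. That of exon probes was 16340, 19342 and 21781, so the bright end of all spots was far higher in the IRI scanner file and that of exons was not. On the sham array 36 of the 53 probes over 10000 were + probes and 17 were - probes, although the flag was set at alike shares of both strands (42.2% of + and 41.5% of - probes). All exon probes together made up 8.10% of the signal of spots that are not controls on the sham array, 1.83% in the IRI scanner file and 8.07% in the matrix IRI column, while being 5.65% of these spots.

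The 5 brightest exon probes of sham plasma were all + probes. Exon 11367+ had a signal of 138748 on the sham array, 37686 in the IRI scanner file and 83493 in the matrix IRI column. Exon 10659+ had 134704, 41014 and 71502 in the same order, and exon 10210+ had 129680, 34570 and 79683. Each of these was brightest on the sham array and dimmest in the IRI scanner file. Exon 11220+ had 113179, 30473 and 97726, and exon 10444+ had 96657, 22341 and 37493. Signals of different probes depend on how well each binds, so their order is one of brightness and not of RNA amount. The - probes of the same exons had 1100, 126, 5.24, 4.68 and 14.2 on the sham array in the order above, and those of exons 10210, 11220 and 10444 were not well above background.

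The brightest sham exons were seen in every column. Of the 100 brightest, each with at least 3108 on the sham array, 64 were + and 36 were - probes. All 100 had the flag in the IRI scanner file and above the floor in the matrix IRI column, but 49 were among the 100 brightest exon probes of the former and 88 among those of the latter. Their median was 10216 on the sham array, 3281 in the IRI scanner file and 15143 in the matrix IRI column. Over all 3457 probes the rank correlation of the signal (Spearman's rho, a description across probes of 2 arrays) was 0.505 for sham and the IRI scanner file, 0.799 for sham and the matrix IRI column, and 0.598 between the 2 versions of IRI. Over all 61194 spots it was 0.405, 0.738 and 0.454.

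Bright exons that sham plasma lacked were found in the IRI scanner file and not, with few exceptions, in the matrix IRI column. Of 215 exon probes over 1000 in the IRI scanner file, 62 lacked the flag for sham, and 55 of these were also below the floor in the matrix IRI column. Of 242 exon probes over 1000 in the matrix IRI column, 2 lacked the sham flag. All 185 sham probes over 1000 had the flag in the IRI scanner file and were above the floor in the matrix IRI column, and 102 probes were over 1000 in all 3 columns. These counts over 1000 were not made over all spots, so no share of all spots stands beside them. For the flag, which needs no signal of 1000, 33.7% of all spots had it in the IRI scanner file only, beside 28.8% of exon probes. Flagged signal found only there was thus not particular to exons.

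On the sham array an exon more often had signal of 1 strand than of both. Of the 1728 exons probed on both strands, 373 (21.6%) had both probes well above background on the sham array, 700 (40.5%) had 1 and 655 (37.9%) had none. Among the 700 the + probe was the one with signal in 356 and the - probe in 344. Where a + probe had the flag, the - probe of its exon had it in 51.2% of exons, and where the + probe lacked it, in 34.4%. The share with both, 21.6%, was above the product of the shares of the 2 strands, 17.5%. Against the 99th percentile of negative controls the share of exons with 1 strand was 24.7%. In the IRI scanner file 713 exons had both strands, 774 had 1 and 241 had none. In the matrix IRI column, with the floor, it was 333, 772 and 623. The share with both was nearer the product of the strand shares there, at 41.3% against 40.5% in the IRI scanner file and 19.3% against 17.3% in the matrix IRI column. Mouse lincRNA loci had both strands in 46 of 340 loci (13.5%) for sham and in 78 (22.9%) for the IRI scanner file, below the shares of exons in the same columns. Signal of 1 strand only was found on the sham array at 44.4% of these loci and 41.1% of 608 human orthologs, so it was not particular to exons.

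**Figure D2:**
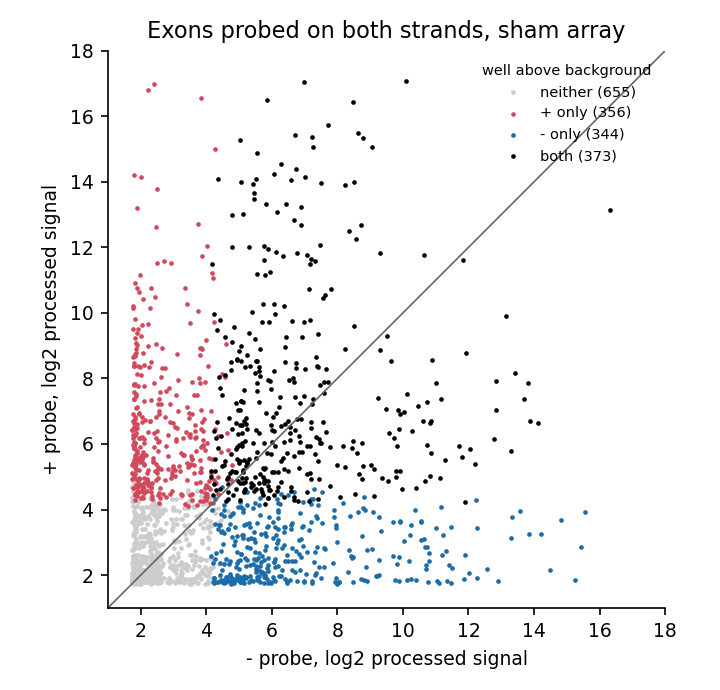
Signal of the + probe (y axis) against that of the - probe (x axis) of the same exon on the sham array, both on the log2 scale of processed signal, for 1728 exons coloured by which strand was well above background. The 373 exons with both strands lie on either side of the line of equal signal, and the brightest points lie along the axes or above the line.

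Where both strands were detected on the sham array, their signals usually differed. The log2 signal of the + probe minus that of the - probe had a median of 0.29 over the 373 exons (interquartile range -1.32 to 2.75), with the + probe brighter in 208 and the - probe in 165. Its median size was 2.08, or 4.24-fold, and 190 exons (50.9%) differed 4-fold or more, 117 with a brighter + and 73 with a brighter - probe. Within 1.5-fold were 72 exons. Other lincRNA probes with both strands flagged on the sham array differed too. The median size was 2.09 over 46 mouse lincRNA loci and 1.75 over 79 human orthologs, with 52.2% and 40.5% of them differing by 4-fold or more. Probes of the 2 strands have different sequences and may bind unequally, so a difference on 1 array is one of signal. Single spots also scatter, and spots of 1 probe printed several times had a median SD of 0.23 on the log2 scale on the sham array, beside a median size of the strand difference of 2.08.

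The 5 largest differences on the sham array all had a brighter + probe. Exon 11792 had 93189 for + and 57.8 for -, a 1612-fold difference, and in IRI 7754 and 6.65 in the scanner file and 91476 and 2.73 in the matrix column. Exon 12079 had 39759 and 32.3 in sham plasma, 31662 and 9.99 in the IRI scanner file, and 21263 and 4.40 in the matrix IRI column. Exon 10659 differed 1071-fold on the sham array, from 134704 for + to 126 for -, and its - probe had 6.40 and 17.0 in the 2 versions of IRI. In these exons the + probe kept a signal of over 1000 in each column, whereas the - probes had under 20 in both versions of IRI. Exon 12091 had 17238 and 20.4 in sham plasma, 3652 and 4.38 in the IRI scanner file, and 19784 and 24.9 in the matrix IRI column. Exon 11822 had 30022 and 47.0, then 61763 and 21.6, then 31199 and 38.9.

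The preferred strand of an exon was mostly the same on the sham array and in IRI. The 2 arrays share no sample, and a binding difference between the probes would be present on both. Of the 373 exons the strand difference had the same sign in 274 (73.5%) in the IRI scanner file and in 307 (82.3%) in the matrix IRI column. Among the 190 with a 4-fold difference it was 172 (90.5%) and 189 (99.5%). The rank correlation of the difference with that on the sham array was 0.743 and 0.893 over the 373 exons. The difference was larger in IRI than on the sham array in 249 of 373 exons in the scanner file and in 295 in the matrix column, with a median size of 3.57 and 3.85 against 2.08 (log2). These exons were chosen for signal of both strands on the sham array only. Over the 257 and 239 exons with both strands also detected in IRI, the median size was 2.84 against 2.26 on the sham array, and 3.39 against 2.62, and it was larger in IRI in 147 and 166.

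**Figure D3:**
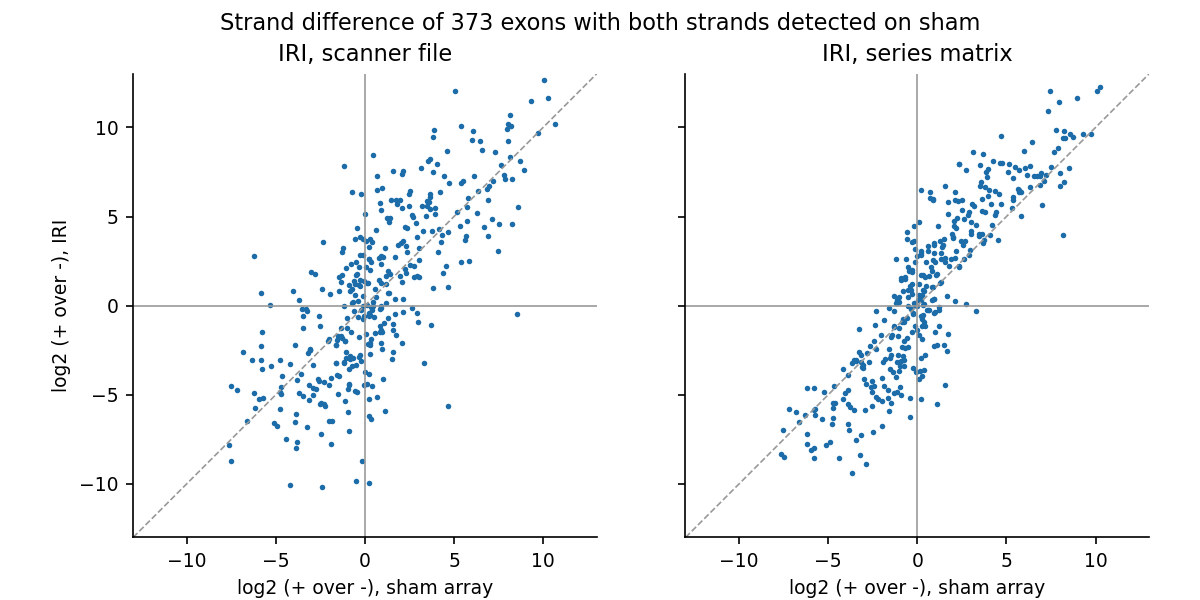
Strand difference, log2 of + over - processed signal, on the sham array (x axes) and in IRI (y axes), for the 373 exons flagged on both strands of the sham array. Points with both differences above 0 or both below 0 keep the brighter strand, 274 in the scanner file and 307 in the matrix column, and the dashed line marks equal differences.

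Exons with 1 strand on the sham array also kept that strand more often than the other. Of the 356 with only the + probe, the IRI scanner file had only + in 127, only - in 32, both in 167 and neither in 30, and the matrix IRI column had 230, 20, 42 and 64. Of the 344 with only the - probe, the IRI scanner file had only - in 158, only + in 31, both in 128 and neither in 27, and the matrix IRI column had 245, 13, 43 and 43. A change to the opposite strand alone was thus the rarest outcome but one in the IRI scanner file and the rarest in the matrix column. The 655 exons with no strand on the sham array had at least 1 strand in 477 in the IRI scanner file and in 155 in the matrix IRI column.

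For IRI against sham, log2 signals of the 2 columns were quantile normalized over all spots that are not controls. A probe was past the threshold at 1.5-fold or more, or at 0.7-fold or less. These limits are those of the methods, set here on the fold change of linear signals. In the scanner files a probe counted as detected when both arrays flagged it as positive and well above background and not as an outlier. By this rule 1203 exon probes were detected, and most were lower in IRI after normalization, as were most detected negative-control spots. Past the upper threshold were 80 (6.65%), beside 19.1% of 21294 detected probes of all kinds, and past the lower threshold were 1017 (84.5%), beside 69.7%. The median log2 fold change was -2.64 (interquartile range -4.08 to -1.23), against -1.78 for all detected probes. Of 112 negative-control spots detected by the same rule 97 (86.6%) were past the lower and 0 past the upper threshold, with a median of -2.85. Without normalization 391 exon probes (32.5%) were past the upper and 546 (45.4%) past the lower threshold. The medians of exons and of all detected probes were then -0.30 and 0.55, so that the scaling moved both and the exon median minus that of all detected probes was -0.86 with it and -0.85 without it. Probes for mouse lincRNA loci and human orthologs had medians of -2.83 and -2.42. Detected + and - exon probes had medians of -2.48 and -2.73, with 31 and 49 past the upper and 512 and 505 past the lower threshold.

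In the series matrix, where a probe counted as detected by its flags on the sham array and the floor in IRI, 1156 exon probes were detected and the picture was close to that of all probes. Past the upper threshold were 370 (32.0%), beside 32.6% of 17709 detected probes, and past the lower were 226 (19.6%), beside 19.9%. The median log2 fold change was 0.21 (interquartile range -0.32 to 0.75) for exons and 0.21 for all detected probes. For a single probe, the SD of the log2 fold change between spots had a median of 0.25 over 6 probes with all spots detected. The detected + probes had 188 rises and 106 falls past the thresholds and the - probes 182 and 120. The same SD in the scanner files was 0.26, over 4 probes. Fold changes of named exons are given after normalization unless stated.

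Fold change depended on the sham signal in both sources, among exons as among all detected probes. When the detected exon probes were split into 3 equal parts by sham signal, the scanner medians were -1.09, -2.70 and -4.43 from dim to bright, and those of all detected probes in the same ranges were -0.53, -2.05 and -4.22. In the matrix the medians were 0.66, 0.08 and -0.08 for exons and 0.61, 0.05 and -0.07 for all. In the matrix 208 of the 385 dimmest exon probes (54.0%) were past the upper threshold and 25 (6.49%) past the lower. Among all detected probes in that range it was 51.5% and 8.28%. Of the 386 brightest exon probes 58 (15.0%) were past the upper and 93 (24.1%) past the lower, beside 16.0% and 24.0% of all detected probes. Before normalization a dim sham probe cannot be far lower in IRI and still be detected, which limits the falls of dim probes by construction. After normalization 263 of the 401 dimmest exon probes of the scanner files (65.6%) were still past the lower threshold. Among all detected probes in that range it was 50.4%.

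**Figure D4:**
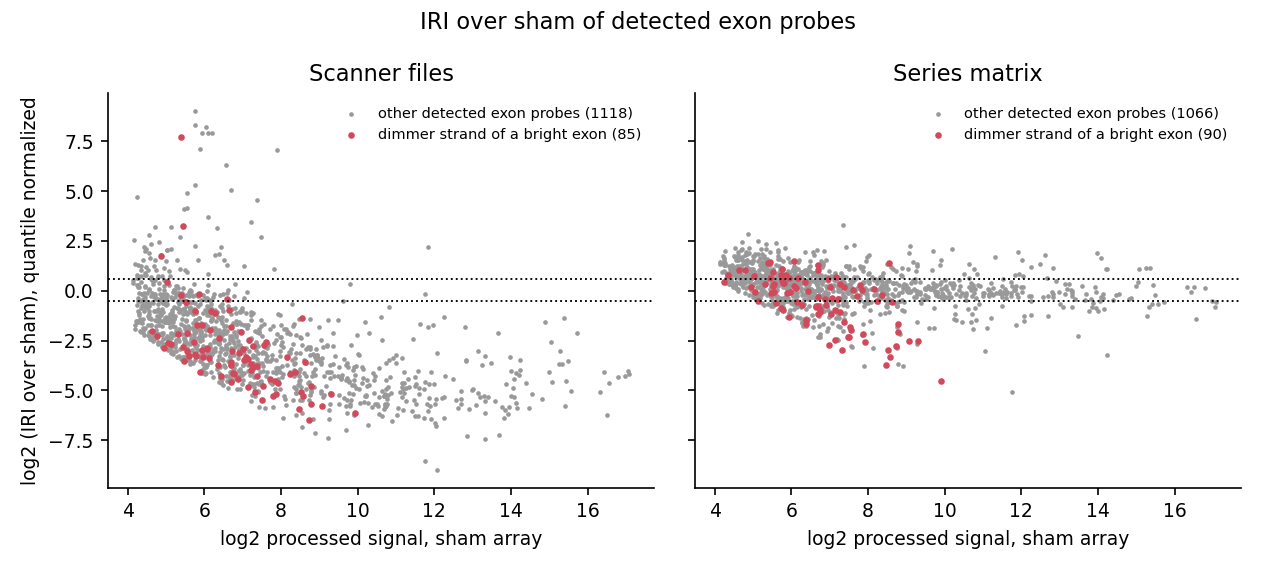
Log2 fold change of IRI over sham after quantile normalization (y axes) against log2 processed signal on the sham array (x axes) for detected exon probes, 1203 from the scanner files and 1156 from the series matrix, with dotted lines at 1.5-fold and 0.7-fold. Red points are probes with a sham signal of 1000 or less whose opposite strand was over 1000; in the matrix 39 of these 90 lie under the lower line.

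The largest rises of the scanner files were single probes that had almost no signal in the matrix IRI column. Exon 10315- had 53.8 in sham plasma and 145290 in the IRI scanner file, a 511-fold rise after normalization, and 9.59 in the matrix IRI column. Exon 10504+ had 53.6, 104527 and 4.69, a 320-fold rise in the scanner files. Exon 10608- had 65.9, 119146 and 8.75, a 292-fold rise. The sham signals of these exons lay within the range of the negative-control spots, whose highest was 177. Exon 12032- had 68.7, 108548 and 16.4, a 245-fold rise, and exon 10465+ had 61.7, 95150 and 3.76, a 242-fold rise. The opposite strands of these 5 exons had between 145 and 450 in the IRI scanner file. Among probes with no flag on the sham array, exon 11750+ (5.32 to 67033) was at least 831-fold higher in the IRI scanner file, exon 11149+ (4.57 to 44156) at least 497-fold and exon 12109- (4.82 to 25321) at least 274-fold. Without normalization these bounds were 4021-fold, 2649-fold and 1519-fold. The 3 probes had 3.0, 3.12 and 3.21 in the matrix IRI column. All 8 were below the floor there.

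The largest falls of the scanner files were exons with high sham signal, and 4 of the 5 had high signal in the matrix IRI column too. Exon 10413- had 4265 on the sham array, 43.7 in the IRI scanner file, a 509-fold fall, and 2385 in the matrix IRI column, a 2.83-fold fall there. Exon 10387- had 10242, 401 and 12736, a 175-fold fall, and exon 10538+ had 604, 19.1 and 1478, a 171-fold fall. Exon 10319- had 7328, 323 and 23800, a 158-fold fall in the scanner files beside a 2.19-fold rise in the matrix. The exception was exon 11995+, with 3457, 49.8 and 137, which was 375-fold lower in the scanner files and 34.2-fold lower in the matrix. Normalization enlarged these falls, which were 97.7-fold for exon 10413- and 69.4-fold for exon 11995+ without it. Exon 10678- (164 to 7.48), which lacked the flag in the IRI scanner file, was at least 13-fold lower there without normalization and had 190 in the matrix IRI column. Exons 10283+ (187 to 10.7) and 10006- (178 to 12.6) were at least 14.8-fold and 14.0-fold lower in the scanner files without normalization, and 6.87-fold and 5.09-fold lower in the matrix.

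Among detected probes, the largest rises of the matrix were smaller than those of the scanner files. Exon 11331+ had 164 on the sham array, 2292 in the matrix IRI column, a 9.87-fold rise, and 307 in the IRI scanner file. Exon 10623+ had 29.0, 199 and 15.7 in that order, a 7.18-fold rise, and exon 11075- had 35.3, 193 and 12.8, a 5.59-fold rise. The scanner files gave these 3 exons at 4.16-fold, 5.87-fold and 8.77-fold lower in IRI, the opposite direction, but without normalization exon 11331+ was 1.87-fold higher there and the others were 1.85-fold and 2.77-fold lower. Exon 10764- had 26.2, 125 and 371 and was higher in both, 5.36-fold in the matrix and 2.88-fold in the scanner files. Exon 10156- had 48.7, 272 and 57.1, a 5.20-fold rise in the matrix and a 3.60-fold fall in the scanner files that was a 1.17-fold rise without normalization. Without a flag on the sham array, exon 11925- went from 4.02 to 59508 in the matrix IRI column, at least 3570-fold higher without normalization, and exon 11459- from 14.0 to 11669, at least 700.0-fold higher. The IRI scanner file had 5.84 and 16.1 for these probes. The matrix IRI column also held 1 negative-control spot at 19005, with the next highest at 109. Exon 11686+ was at least 20.4-fold higher in the matrix without normalization, from 16.0 to 340, with 83.9 in the IRI scanner file.

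The largest falls of the matrix were also lower in IRI in the scanner files, by widely different sizes. After exon 11995+, exon 10070+ had 968 on the sham array, 50.5 in the matrix IRI column, a 23.2-fold fall, and 88.0 in the IRI scanner file, a 69.5-fold fall. Exon 10534- had 240, 16.9 and 68.6 in that order, 13.9-fold and 21.7-fold lower, and exon 12010+ had 482, 41.8 and 362, 13.5-fold and 11.2-fold lower. Without normalization exon 12010+ was 1.33-fold lower in the scanner files, exon 10534- 3.50-fold and exon 10070+ 11-fold. Exon 10074- had 356, 28.7 and 32.2, 13.3-fold and 62.0-fold lower. Exon 10897+, the next that was low in both, had 440, 40.5 and 82.6, 12.6-fold and 34.4-fold lower. The falls in the scanner files stand among 84.5% of detected exons past the lower threshold there. Below the floor in the matrix IRI column, exons 11182- (152 to 5.80), 10634- (142 to 11.7) and 10236+ (131 to 13.4) were at least 8.45-fold, 7.83-fold and 7.11-fold lower, and 9.13-fold, 8.55-fold and 7.84-fold without normalization. The IRI scanner file had 20.6, 5.87 and 39.8 for them.

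The 5 largest rises among exons detected and past the upper threshold in both sources, ordered by the smaller change, were all on - probes. Exon 11973- had 26.2 on the sham array, 1487 in the IRI scanner file and 97.3 in the matrix IRI column, 9.08-fold and 4.31-fold higher. Exon 10992- had 41.5, 1983 and 119, 6.55-fold and 3.02-fold higher, and exon 11721- had 18.9, 3039 and 40.4, 26.4-fold and 2.92-fold higher. Exon 10108- had 32.3, 789 and 81.9, 4.13-fold and 2.92-fold higher, and exon 10804- had 56.7, 1257 and 280, 2.90-fold and 4.42-fold higher. The sham signals of all 5 lay under the 99th percentile of the negative-control spots of that array. The + probes of 4 of these exons (11973, 10992, 11721 and 10804) lacked the flag in sham plasma, and that of exon 10108 had 94.9, 128 and 454.

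In the matrix few exons had both strands past the same threshold. Of 239 exons with both probes detected there, 12 (5.02%) had both past the upper and 13 (5.44%) both past the lower threshold. In 34 (14.2%) 1 strand was past each. Singly, 32.0% of all detected exon probes were past the upper and 19.6% past the lower threshold. The counts of pairs were not tested against these shares. The median difference between the log2 fold changes of the 2 strands was 0.90. In the scanner files 202 of 257 such exons had both strands past the lower threshold, beside 84.5% of all detected exon probes singly, 1 had both past the upper and 23 had 1 past each. An exon with strands past opposite thresholds in the matrix was exon 11995, with + at 3457 on the sham array and 137 in the matrix IRI column, and - at 1587 and 6257. Its - probe had 3012 in the IRI scanner file, so that the brighter strand was + on the sham array and - in both versions of IRI.

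In the matrix, the dimmer strand of an exon with a bright opposite strand was more often lower in IRI than other probes. Of 90 detected exon probes with a sham signal of 1000 or less and an opposite strand over 1000, 39 (43.3%) were past the lower and 19 (21.1%) past the upper threshold, and their median log2 fold change was -0.30. Of 881 with a sham signal of 1000 or less and an opposite strand at 1000 or less, 144 (16.3%) were past the lower and 326 (37.0%) past the upper, with a median of 0.35. The former were somewhat brighter on the sham array, with a median of 104 against 77.6. At sham signals over 200 and up to 1000, the median was -2.05 for 19 probes with a bright opposite strand and 0.05 for 201 without, with 13 (68.4%) and 40 (19.9%) past the lower threshold. At 50 to 200 the medians were -0.42 for 53 and 0.22 for 382 probes, and under 50 they were 0.40 for 18 and 0.71 for 298. The order was thus the same in each range of sham signal. In the scanner files the medians were -3.29 for 85 probes with a bright opposite strand and -2.17 for 933 without, and -5.10 against -3.94 at sham signals over 200. No test was possible. The split was chosen after fold changes of exons listed by the study had been seen, and 11 of these exons are among the 39 falls. Without any listed exon, 28 of 79 probes with a bright opposite strand (35.4%) and 131 of 863 without (15.2%) were past the lower threshold in the matrix, with medians of -0.067 and 0.36. At sham signals over 200 it was then 7 of 13 and 34 of 195, with medians of -0.53 and 0.07.

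The study's lists of altered plasma LncRNAs, which were chosen on these samples and are not independent evidence, name 31 of the exons, 5 as raised and 26 as lowered, all annotated as intergenic and lying on 14 chromosomes. In the matrix the 5 raised exons were all past the upper threshold (log2 fold change 2.01 to 2.84). Of the 26 lowered exons 25 were detected, and all 25 were past the lower threshold (-5.10 to -2.19). The lists are far shorter than the counts in the matrix, where 370 exon probes were past the upper and 226 past the lower threshold. Listed exons thus lay well past both thresholds, and many exons past them are not listed. The counts here use the fold change of linear signals. Which measure of fold change gave the lists was not tested, so the lists and these counts may not be alike in measure. In the scanner files 22 of the lowered exons were detected, of which 21 were past the lower threshold and 1 past the upper, and 4 of the raised exons, of which 1 was past the upper and 2 were past the lower threshold (2 higher and 2 lower without normalization). These counts stand beside 69.7% of all detected probes past the lower threshold in the scanner files. The exon with opposite directions among the lowered was 11530-, with 103 on the sham array, 31152 in the IRI scanner file and 18.1 in the matrix IRI column.

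Many lowered exons had a bright opposite strand, and most of those were the dimmer strand. The sham signals of the 26 lowered exons ran from 103 to 3457 with a median of 217. The opposite probe of the same exon was over 1000 in 12 of 26 (46.2%) on the sham array. It was so in 12 of 26 in each version of IRI, though not in the same 12 exons in the scanner file. Exon 11995+ is among the 12 of the sham array, but its own strand was brighter there, at 3457 against 1587. On the sham array the opposite probe was brighter in 13 of the 26. Among all exon probes detected in the matrix it was over 1000 in 98 of 1156 (8.48%), and among those of them with a sham signal over 100, in 57 of 595 (9.58%). Of the 15 opposite probes that were detected in the matrix, 3 were past the upper and 3 past the lower threshold there. None of the 5 raised exons, with sham signals of 19.3 to 35.3, had an opposite probe over 1000 on the sham array.

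Exons 10070 and 10074 show this pattern within 1 locus. They belong to mouselincRNA1506 on chromosome 9, at chr9:13250062-13250134 and chr9:13270305-13270383 (mm9), and are listed on opposite strands. Exon 10070+ had 968 on the sham array, 88.0 in the IRI scanner file and 50.5 in the matrix IRI column, while 10070- had 9037, 9955 and 16887. Exon 10074- had 356, 32.2 and 28.7, while 10074+ had 88294, 30798 and 79091. In both exons the listed strand was the dimmer one in all columns, and the brighter strand was past no threshold in the matrix (1.25-fold higher and 1.03-fold lower). The difference between the strands of exon 10074 was 248-fold on the sham array, 957-fold in the IRI scanner file and 2756-fold in the matrix IRI column.

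A second locus with a pair of listed exons, mouselincRNA1492 on chromosome 8, had both on the - strand. Exon 10254- at chr8:122906533-122906683 (mm9) had 383, 60.8 and 44.9, and its + probe had 4843, 18491 and 16606. Exon 10264- at chr8:122964799-122964875 had 367, 66.9 and 55.0, and its + probe had 16472, 8517 and 12070. The listed - probes were 9.87-fold and 7.89-fold lower in the matrix, whereas the + probes were 2.25-fold higher and 2.0-fold lower. Exon 10006- at chrX:18814966-18815080, of mouselincRNA1608, had 178, 12.6 and 36.5, beside 4332, 5081 and 2825 for its + probe. Exon 11995+, of mouselincRNA0004 at chr1:23263097-23263170, had its own strand bright on the sham array.

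Other lowered exons had a dim opposite strand. Exon 10897+ at chr3:115640509-115640685 had 4.18, 6.56 and 3.13 on its - probe, which had the flag on neither array. Exon 10534-, of mouselincRNA1175 at chr5:23215785-23216255, had 15.7, 29.6 and 18 on its + probe. Exon 12010+, of mouselincRNA0018 at chr1:42768880-42769298, had 49.7, 20.3 and 51.9 on its - probe, which was well above background on both arrays. A fall in the matrix was thus seen also where the opposite strand was dim.

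**Figure D5:**
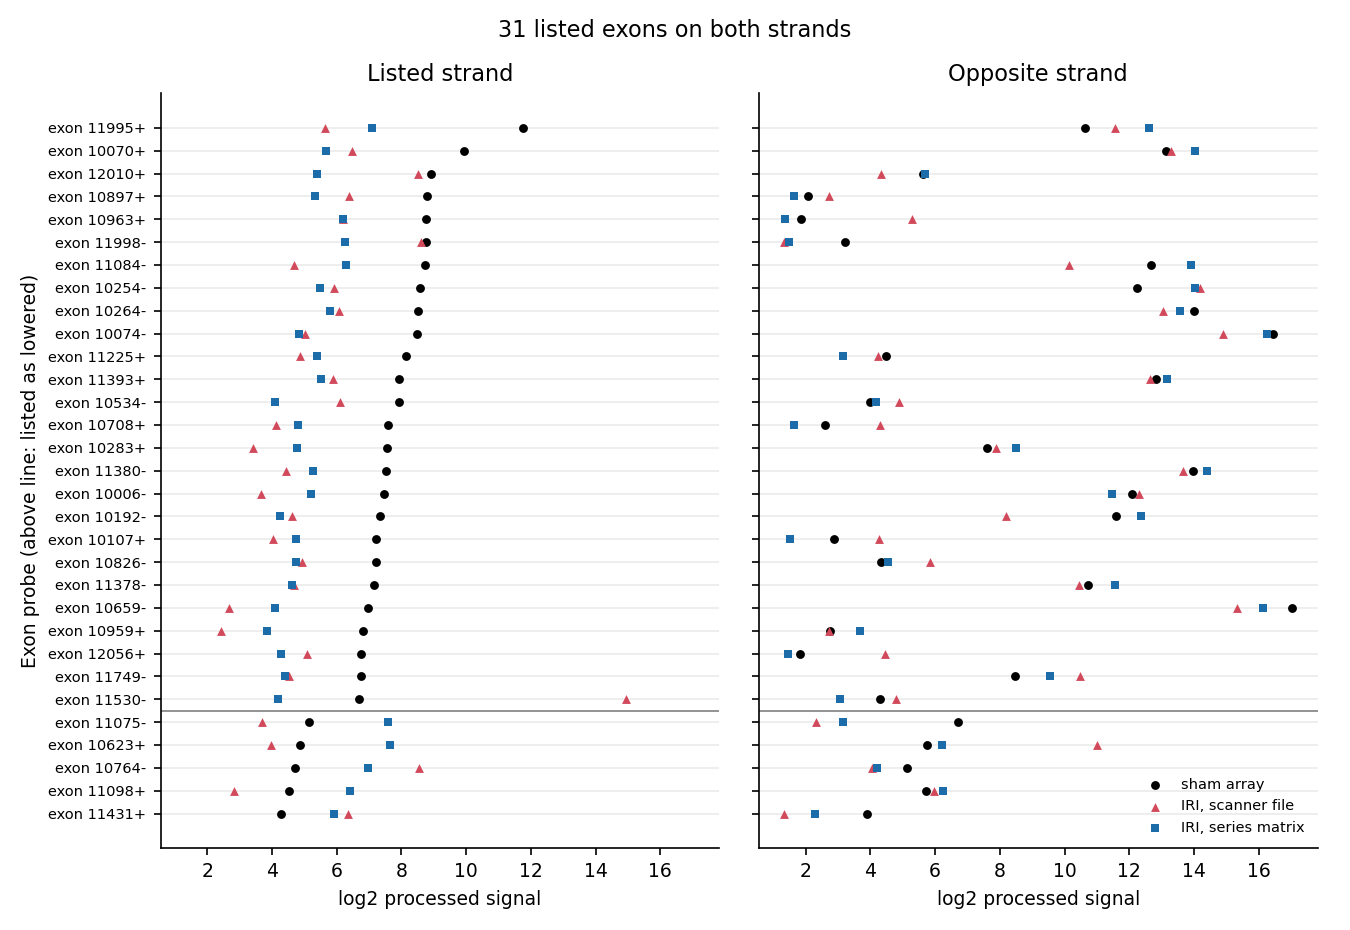
Log2 processed signal (x axes) of the 31 listed exons (rows) on the listed strand and on the opposite strand, on the sham array, in the IRI scanner file and in the matrix IRI column. The 26 exons listed as lowered are above the grey line, and 12 of them have an opposite strand over 1000 on the sham array, with exon 11530- the only one whose listed strand is far brighter in the IRI scanner file.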

How the data were processed

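Plasma RNA was measured on 2 Agilent 1-colour arrays, 1 per group. The authors scanned the arrays and deposited Feature Extraction 11.0.1.1 files, whose processed signal is a background-subtracted intensity not normalized between arrays, with flags per spot. The authors also deposited a series matrix of linear intensities, joined here by feature number, in which 0 columns lacked a sample. Other flags deposited by the authors are 0 or 1. The array header names the build mm9, and positions were given only for listed exons. Depth is limited by the number of arrays, and the modelled relative error of a detected exon spot had a median of 11.5% for sham and 10.6% for the IRI scanner file.

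Groups followed the sample labels. Log2 signals were quantile normalized (Python 3.11.15; libraries scipy 1.17.1, pandas 2.3.3, numpy 2.4.6), checked against limma 3.58.1 in R 4.3.3, and tested on simulated data. Where 1 array was not well above background, the fold is a bound, taken against the dimmest spot well above background there, and in the matrix against its floor. Members, lists, the floor and the naming rule were chosen with earlier results of these data known. Named were exons of the study's lists (values for loci with several listed exons and for those that other parts of the rule name), the 5 brightest sham probes, the 5 largest rises and falls of each source, up to 5 past the same threshold in both, the 3 largest bounds per direction and the 5 largest strand differences. Exons 11530-, 11995 (both strands) and the opposite strand split were singled out after values were seen. Alternatives covered flags, normalization, background correction with normexp and an offset of 50, dim probes, floor and thresholds. Probe sequences were not used here.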

Additional observations from a re-analysis of the deposited data

How the results depend on the processing

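No paired analysis was possible because each group has 1 array, and no replicate could be left out. Of 58 alternative values of 11 results, 32 stayed within 1.5 times a count, the spot SD of a median or the 95% Wilson interval of a share, and 26 did not. Counts of detected probes depended on the rule: positive and significant spots were 2370 on the sham array in place of 1446, and above the 99th percentile of negative controls, chosen after seeing the data, were 589 there and 1060 in place of 2200 in the IRI scanner file. The share of exons with 1 strand was 36.5% with positive and significant spots and 24.7% above that percentile, in place of 40.5%. The median strand difference was 0.91 in place of 0.29 where both probes were above the median of detected exon probes.

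In the scanner files, upper and lower counts (80 and 1017) and the median (-2.64) became 391, 546 and -0.30 without normalization, with rises 41.7% of all calls in place of 7.29%. With quantile normalization over detected probes the upper count was 223 and the median -1.25, with rises 22.2% of calls, and with positive and significant spots 352 and -1.78, with rises 19.1%. The filter on dim probes gave 27, 279 and -3.29, and normexp gave a median of -1.54. The median of exons minus that of all detected probes was between -1.37 and -0.60 in the 7 alternative settings that give one.

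In the matrix, upper and lower counts (370 and 226) and the median (0.21) became 640 and 0.69 for the upper count and median with the 75th percentile, with rises 80.7% of calls in place of 62.1%. The upper count was 606 with positive and significant spots, the counts were 110 and 90 with the filter on dim probes and 193 and 120 at thresholds of 2 and 0.5. Without the floor the lower count was 484 and the median -0.038, with 290 more probes counted. The cause of the other moves was not tested. The share of falls opposite a bright strand (43.3%) was 38.6% and 50% with limits of 500 and 5000, 43.3% without normalization and 35.4% without listed exons, alternatives chosen after seeing the data.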
